A study of Mus musculus with 19 samples.

Results

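The lymphoid priming genes described here are 10 of the 54352 genes counted in these libraries. Flt3, Dntt, Il7r, Satb1, Notch1, Ikzf1, Rag1 and Ccr7 are textbook genes of early lymphoid cells. Ccr9 and Cd2 were added to them on measured values, with no stated threshold. Which values these were is not stated, and they were taken to be the difference between Spehd knockdown and control common myeloid progenitors (CMPs). For Ccr9 and Cd2, every comparison that uses a CMP library is therefore a description and carries no test. In LSK cells the p-values of Cd2 hold only if those libraries had no part in the choice.

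RNA was sequenced from CMPs and from LSK cells, which the labels call KLS, in 19 libraries. Recipients were C57BL/6-CD45.1 mice with the cKit-w41 allele, 9 to 12 weeks old and sublethally irradiated, and they received C57BL/6 hematopoietic stem cells that carried an inducible shRNA vector with zsGreen as its reporter. After 10 weeks of reconstitution and 6 days of doxycycline in the food, zsGreen+ cells were sorted as CMPs (Lin- Sca1- cKit+ CD34+ FcγR low) or as LSK cells (Lin- Sca1+ cKit+). The shRNAs were sh10 and sh20 against the long noncoding RNA Spehd, and a control against Renilla luciferase. All groups shared the vector, the transplantation and doxycycline, so no group is of untreated cells. The CMP libraries comprised 4 controls with Renilla shRNA, 3 with sh10 and 2 with sh20. The LSK libraries comprised 4 controls and 3 for each Spehd hairpin. The sources used here do not say whether each library came from a separate animal, so the p-values measure the spread between these libraries, which may be technical in part.

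Lymphoid priming is the low expression of lymphoid genes in multipotent progenitors before they commit to a lineage. Flt3 and the IL-7 receptor pass on cytokine signals that let such cells survive and divide, and Notch1 directs them to the T cell lineage in the thymus. Ikaros, encoded by Ikzf1, and Satb1 are nuclear proteins that open the lymphoid programme, and Dntt and Rag1 act when antigen receptor genes are rearranged. The chemokine receptors Ccr9 and Ccr7 bring progenitors to the thymus, and Cd2 is an adhesion receptor of T and NK cells. LSK cells hold the stem cells and the multipotent progenitors in which priming is seen, whereas CMPs are defined as progenitors of myeloid cells.

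The guide strands of both Spehd shRNAs are shown because each comparison of a hairpin with Renilla includes whatever that guide does to other transcripts. Capitals mark the seed, bases 2 to 8 from the 5′ end, through which a guide can also repress transcripts that match it in part.
sh10: tACAAAGTcagcttttcctctc
sh20: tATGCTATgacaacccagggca
The complement of the sh10 seed (ACTTTGT) occurred in a transcript of Flt3 and of Rag1 in GENCODE vM21, and it occurred in 27.8% of 21877 protein-coding genes. The complement of the sh20 seed (ATAGCAT) occurred in a transcript of Satb1 and of Notch1, and in 12.8% of protein-coding genes. Neither occurred in Ccr9, Cd2, Dntt, Il7r, Ikzf1 or Ccr7. These matches were sought in whole transcripts and are a description of letters.

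Ccr9 has a start site on chromosome 9 (+ strand) and Flt3 on chromosome 5 (− strand). Their RefSeq promoters on GRCm38.p6, from 250 bases before the start to 50 after it, are shown because the results turn on these receptors. Capitals mark matches to the E-box CANNTG, a general pattern that includes the sites of E proteins such as Tcf3 but is not specific to them.
Ccr9, chr9:123766961-123767260: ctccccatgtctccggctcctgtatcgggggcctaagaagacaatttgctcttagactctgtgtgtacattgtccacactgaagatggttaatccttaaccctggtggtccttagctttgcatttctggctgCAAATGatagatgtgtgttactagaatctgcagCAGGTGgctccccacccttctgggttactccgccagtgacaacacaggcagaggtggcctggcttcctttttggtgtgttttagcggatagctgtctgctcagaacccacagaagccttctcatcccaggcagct
Flt3, chr5:147400440-147400739: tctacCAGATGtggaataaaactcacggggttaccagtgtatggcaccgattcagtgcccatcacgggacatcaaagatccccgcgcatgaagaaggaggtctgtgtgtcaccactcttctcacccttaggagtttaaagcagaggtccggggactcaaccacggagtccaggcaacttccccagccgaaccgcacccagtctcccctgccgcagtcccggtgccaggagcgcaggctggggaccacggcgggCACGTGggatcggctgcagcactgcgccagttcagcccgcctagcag
Each held 2 E-boxes, and 72.3% of 32851 promoters of the same length held at least 1 on either strand. Promoters in that table matched 8 of the 10 genes, and Cd2 and Ccr7 had no entry.

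Total counts assigned to genes ran between 3647318 and 5965155 per library (median 4918631). Each CMP library with a Spehd shRNA (4918631 to 5965155 counts) was deeper than each CMP library with Renilla shRNA (3857980 to 4314959 counts), so depth and knockdown cannot be told apart in CMPs. None of the counted genes carries the name Spehd, so the knockdown itself was not analysed here. Levels are given as CPM, counts scaled to the size of each library after TMM normalization. The sort was checked by its markers: Ly6a, which encodes Sca1, ran from 39.9 to 81.4 CPM in LSK libraries and from 1.58 to 9.81 CPM in CMP libraries. Of 14 genes of the CMP gate and of myeloid progenitors, edgeR called 2 higher and 10 lower in control CMPs against control LSK cells, where 19.8% of all genes were called. Among them the erythroid factor Klf1 was at 298 CPM in CMPs and 36.2 CPM in LSK cells, whereas the granule protease gene Elane was at 35.3 and 147 CPM. This list therefore did not set the libraries sorted as CMPs above those sorted as LSK cells. Transcripts listed as markers of T, NK or B cells were present in some libraries sorted as CMPs. Of 14 T cell markers, 0 to 2 were at 0 counts in each of the 4 CMP libraries with Renilla shRNA, and their summed level was 164 to 255 CPM there. It was 207 and 295 CPM in both CMP libraries with sh20, and 68.8 to 93.4 CPM in CMPs with sh10, where 3 to 6 of the 14 were at 0. In LSK libraries it was 82.9 to 124 CPM. Most of the lower sums was Lat, a signalling adaptor, at 63.4 to 79.7 CPM in CMPs with sh10 and 53.7 to 105 CPM in LSK cells. Without Lat the sum was 72.9 to 126 CPM in CMPs with Renilla shRNA, 5.42 to 25.4 with sh10, 101 and 164 with sh20, and 7.52 to 31.1 in LSK cells. In control CMPs against control LSK cells edgeR called 7 of the 14 higher and 0 lower, against 19.8% of all genes. Not all followed: Cd4 was at 0.231 to 3.94 CPM in these CMPs and 2 to 4.43 in these LSK cells. Cd5 was at 0 to 0.98 and 0.544 to 2.53 CPM, and Cd8a at 0 to 7.1 and 0.215 to 10.1 CPM. The summed level of 10 NK cell markers was 305 to 460 CPM in CMPs with Renilla shRNA, 131 to 157 with sh10, 160 and 237 with sh20, and 146 to 229 in LSK cells. Nkg7 gave 101 to 158 CPM of it in every library, and without Nkg7 the sums were 152 to 316, 27.5 to 33.8, 58.9 and 120, and 19.9 to 112 CPM in the same order. The sums without Lat and Nkg7 were added after seeing the data. CMP sh20 replicate C further held 338 CPM of 12 B cell markers, against 32.5 to 83.9 CPM in the other CMP libraries. The summed level of 13 plasmacytoid dendritic cell markers was 379 to 534 CPM in CMPs with Renilla shRNA, 634 to 759 with sh10, and 620 and 470 with sh20. Of 11 tested with sh10, edgeR called 1 higher (Irf8, 1.86) and 1 lower (Irf7, -0.9), against 1.97% of all genes. The part of these cells in the levels of the 10 genes was not tested. In sorted cells fewer cells of a type and less RNA per cell cannot be told apart.

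Per kilobase of exon, the levels of the 10 genes spanned a wide range. Averaged over the 19 libraries, Dntt had 53.6 CPM per kilobase, Flt3 43.7 and Ikzf1 30.9. Satb1 (4.28), Cd2 (4.26), Ccr7 (2.77) and Notch1 (1.91) came next. Il7r (0.524), Ccr9 (0.423) and Rag1 (0.0879) were lowest, and each of these was at 0 counts in 2, 2 and 8 libraries respectively.

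**Figure D1:**
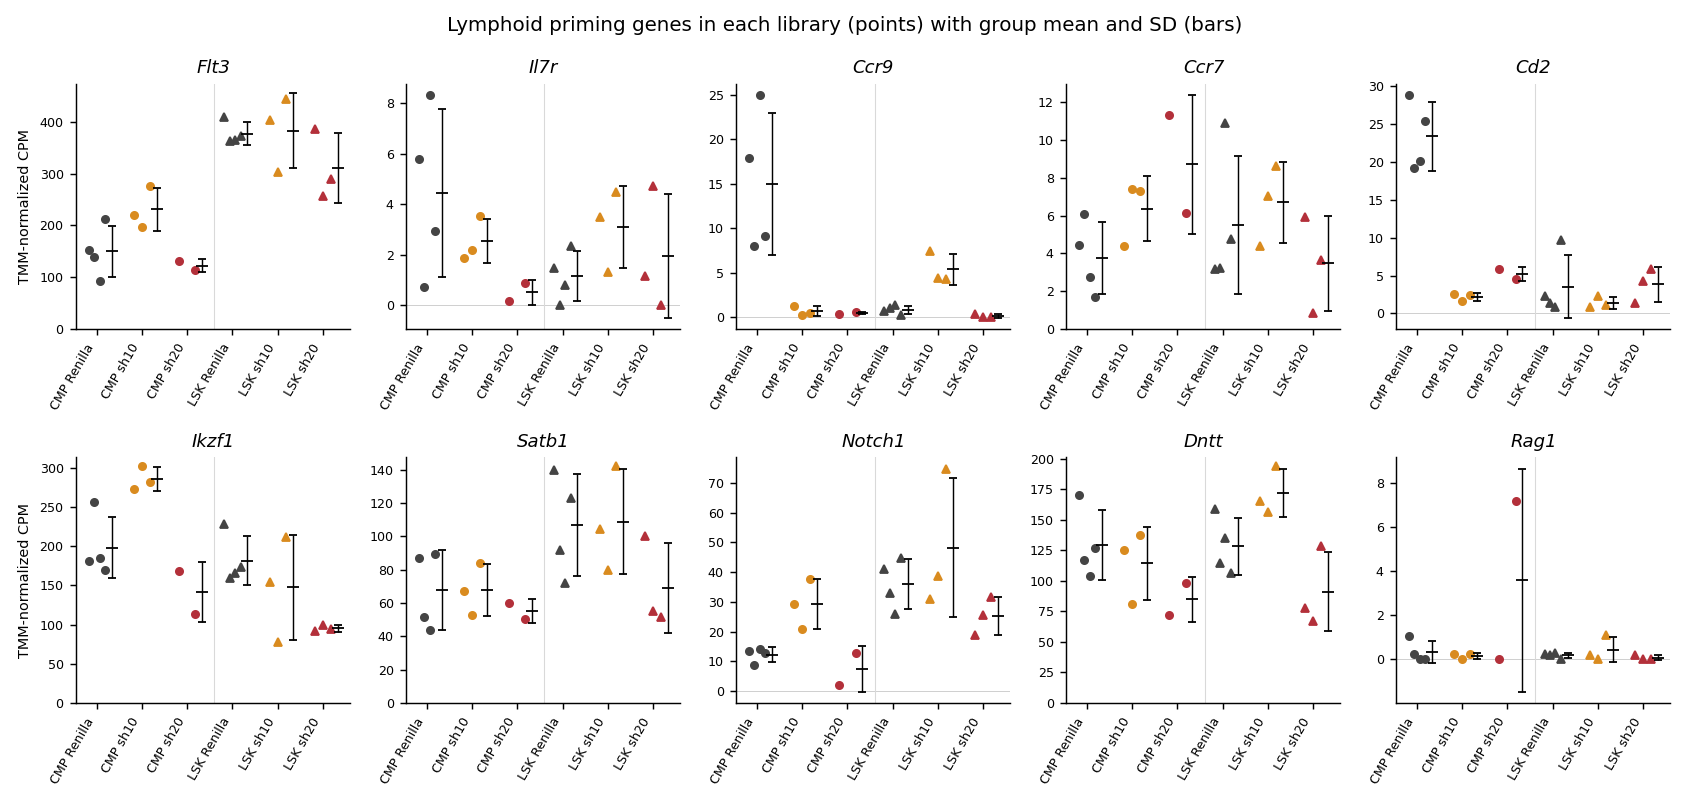
Level of each lymphoid priming gene (y axis, TMM-normalized CPM, 1 scale per gene) in 19 libraries grouped by cell type and shRNA (x axis). Circles are CMP libraries, triangles LSK libraries, and bars give the group mean and SD. Ccr9 and Cd2 stand out in CMPs with Renilla shRNA, Flt3 is higher in LSK cells, and Rag1 is above 1.1 CPM in CMP sh20 replicate C.

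Ccr9, the receptor for the thymic and gut chemokine CCL25, was detected mainly in control CMPs and in LSK cells with sh10. In CMPs with Renilla shRNA it had 68, 33, 108 and 37 counts, or 17.9, 8.02, 25 and 9.06 CPM in replicates A to D. In CMPs with sh10 it had 6, 1 and 2 counts (0.201 to 1.26 CPM), and with sh20 it had 2 and 3 counts (0.338 and 0.525 CPM). All 5 knockdown libraries were below all 4 controls, as were 6.38% of all genes tested. Each hairpin on its own was also below the controls, as were 12.9% of genes with sh10 and 17.7% with sh20. The fitted log2 difference between both Spehd shRNAs and Renilla in CMPs was -4.73 (SE 0.58), with -4.54 (SE 0.70) for sh10 and -5.03 (SE 0.86) for sh20. Under the alternatives tried, the difference for both shRNAs ran from -5.23 to -4.09. These values are taken to have chosen the gene and are given as a description.

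In LSK cells the hairpins differed in direction for Ccr9. With Renilla shRNA LSK cells had 3, 5, 5 and 1 counts (0.215 to 1.36 CPM). With sh10 they had 42, 23 and 24 counts (4.33 to 7.39 CPM), and with sh20 they had 2, 0 and 0 counts (0 to 0.394 CPM). All 3 sh10 libraries were above all Renilla libraries, as for 3.13% of genes, whereas sh20 overlapped Renilla. Ccr9 passed the filter on low counts in LSK cells only through the sh10 libraries, where it is high, so its values there also carry no test. The log2 difference of sh10 from Renilla was 2.73 (SE 0.76). With sh20 the summed counts were 2, against 14 with Renilla.

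The order of Ccr9 between cell types differed with the hairpin. With Renilla shRNA CMPs were above LSK cells by 4.20 on the log2 scale (SE 0.68), and the groups did not overlap, as for 16.4% of genes in that direction. With sh10 CMPs were below LSK cells, at -3.06 (SE 0.77), again with no overlap, as for 20% of genes. With sh20 both cell types were within 3 counts of 0. Exons of Ccr9 (ENSMUSG00000029530.16, GRCm38 chromosome 9, 123678439 to 123784330, + strand) overlap those of Slc6a20a and AC165425.1 on the other strand and of Gm17200 on its own strand. Per the study's methods the software ran with default settings, under which HTSeq-count takes reads as stranded, whereas the library kit does not mark strand. Counts of Ccr9 may therefore be shared with the genes on the other strand. Reads on exons shared with Gm17200 may instead have been left uncounted as ambiguous.

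Cd2, which binds CD48 in the mouse and is carried by T cells, NK cells and some progenitors, had a pattern in CMPs like that of Ccr9. With Renilla shRNA it had 110, 79, 87 and 104 counts, or 28.9, 19.2, 20.1 and 25.5 CPM. With sh10 it had 12, 8 and 12 counts (1.61 to 2.52 CPM), and with sh20 35 and 26 counts (5.92 and 4.55 CPM). Every knockdown library lay below every control, as for 6.38% of all genes (12.9% with sh10 and 17.7% with sh20 alone). Both sh20 libraries lay above the 3 sh10 libraries, as for 18.5% of genes. The log2 difference of both shRNAs from Renilla was -2.75 (SE 0.39), with -3.40 (SE 0.32) for sh10 and -2.14 (SE 0.35) for sh20. With log2 total counts as a covariate these became -4.06, -2.43 and -0.47, so the sh20 value rests on how depth is treated. These values, like those of Ccr9, are taken to have chosen the gene.

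In LSK cells Cd2 was low with every shRNA. It had 11, 7, 3 and 45 counts with Renilla (0.816 to 9.69 CPM), 5, 12 and 6 with sh10 (0.879 to 2.29 CPM), and 7, 20 and 32 with sh20 (1.38 to 5.87 CPM). The groups overlapped. The log2 fold changes were -1.31 (SE 0.88) with sh10 and 0.08 (SE 0.83) with sh20, with adjusted p-values of 0.995 for both in edgeR. CMPs with Renilla shRNA were above LSK cells by 2.70 (SE 0.60), and by 3.94 without LSK Renilla replicate D, which held most of the LSK Renilla counts. Cd2 (ENSMUSG00000027863.8) lies on chromosome 3 from 101275899 to 101287939 on the − strand, with no overlapping gene.

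Genes were ranked by how closely their levels followed Cd2 over the 19 libraries, for the 10484 genes that averaged 50 counts or more. The closest were Ms4a4b (Pearson r = 0.919), Klrb1c (0.919) and Il2rb (0.918). Klrb1c encodes the NK cell receptor NK1.1, and Il2rb the IL-2 receptor chain that NK and memory T cells carry. Their libraries share the groups and the depth differences above, and the correlation is a description. For Ccr9 the nearest genes were Ndufa7 (0.705), Ube2d-ps (0.689) and Smim27 (0.685), so none followed it as closely.

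Some markers of mature lymphocytes were also lower with a Spehd shRNA in CMPs. Against Renilla, 5 of 10 NK cell markers tested were lower with sh10 (median log2 fold change -2.83, against -0.01 over all genes, of which 1.97% were called). With sh20 it was 2 of 10 (median -1.15, against 0.01 over all genes, of which 6.17% were called). DESeq2 called 9 lower with sh10 and 3 with sh20. Calls with single hairpins in CMPs, here and in the lists that follow, depended on the processing. Over all genes the 272 calls with sh10 became 5 with the replicate letter as a block, 0 with total counts as a covariate, and 6 to 11 lower and 2 to 3 higher without any single sh10 library. The 853 calls with sh20 became 0 with the block and 0 with the covariate. Klrb1c was at 34.6 ± 16.9 CPM (SD, n = 4) in the controls. It was at 3.23 ± 0.325 CPM (SD, n = 3) in the sh10 libraries and at 8.75 ± 1.73 CPM (SD, n = 2) in the sh20 libraries. With both shRNAs as 1 group, 0 of 10 passed in edgeR, 8 had an unadjusted p under 0.05 and DESeq2 called 1, with a median of -1.67. Of 12 T cell markers tested, 6 fell with sh10 (8 in DESeq2), with a median of -2.63. With both shRNAs as 1 group 0 of 9 passed in edgeR or DESeq2 and 2 had an unadjusted p under 0.05. With sh20 0 of 12 passed in edgeR or DESeq2 and 0 had an unadjusted p under 0.05, with a median of 0.66. The T cell receptor component Cd3e was at 8.51 to 16.4 CPM in CMPs with Renilla shRNA, 0 to 1.05 with sh10, and 33.6 and 11.9 with sh20. Trbc1, which encodes a constant region of that receptor, was at 20.7 to 40.5 CPM with Renilla shRNA, 1.20 to 9.65 with sh10, and 2.87 and 17.3 with sh20. With sh20 Cd3e was within or above the range of the controls and Trbc1 below it. Per the study's methods the marrow was depleted of lineage-positive cells before the sort, a step meant to remove such cells. The part of mature lymphocytes in the levels of Cd2 and Ccr9 was not tested.

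**Figure D2:**
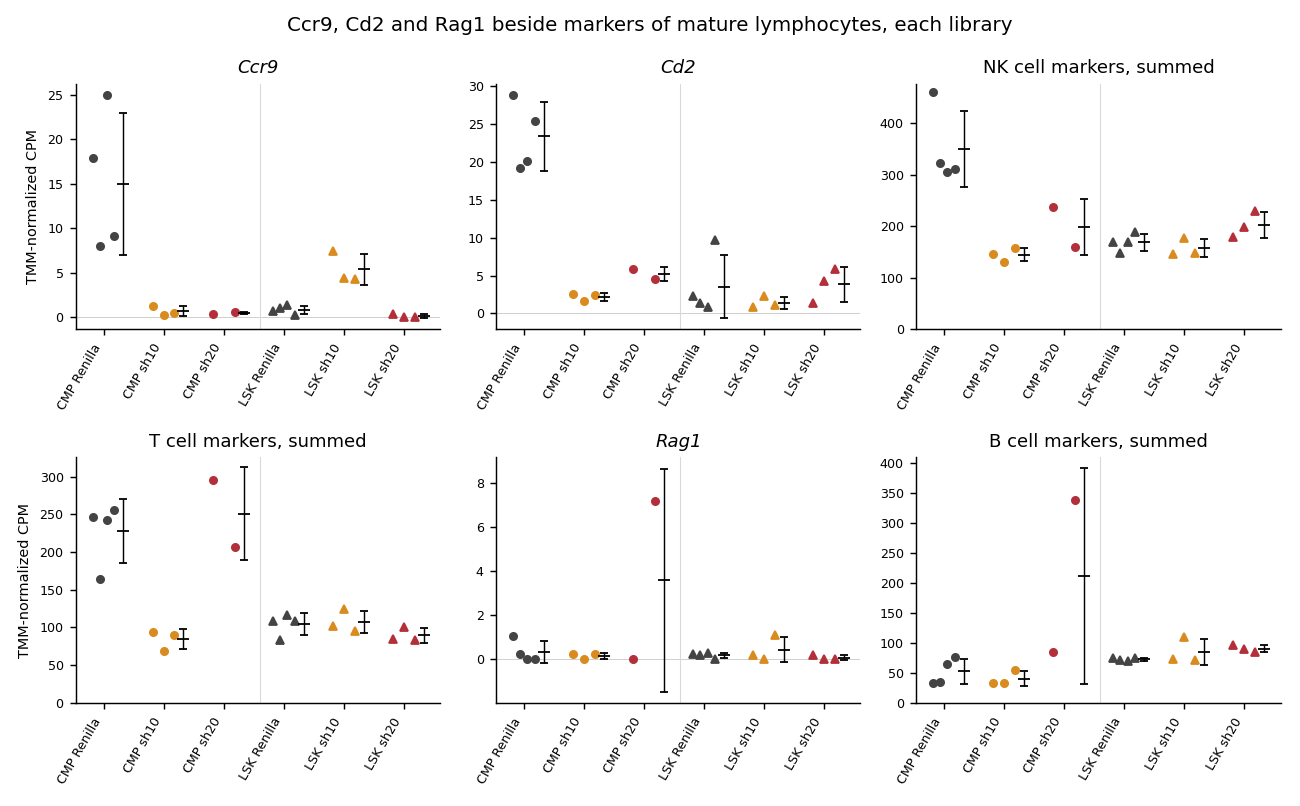
Ccr9, Cd2 and Rag1 (CPM) beside the summed CPM of 10 NK cell, 14 T cell and 12 B cell markers in the same 19 libraries, with group means and SDs. NK cell markers are highest in the 4 CMP libraries with Renilla shRNA, the T cell marker sum, which holds Lat, is low in CMPs with sh10 and not with sh20, and B cell markers reach 338 CPM in the library with the highest Rag1.

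Ccr7, the receptor for CCL19 and CCL21 that guides cells to lymph nodes and with Ccr9 to the thymus, did not follow Ccr9. In CMPs it was at 4.47, 6.08, 2.78 and 1.71 CPM with Renilla shRNA, 4.41, 7.42 and 7.30 with sh10, and 11.3 and 6.13 with sh20. Both sh20 libraries were above the controls by a small margin, as for 12% of genes, and sh10 overlapped them. The log2 fold change of both shRNAs was 0.97 (SE 0.44, adjusted p = 0.313 in edgeR). In LSK cells it ran from 0.858 to 10.9 CPM over the 10 libraries with full overlap of the groups. Of the 17 other chemokine receptors listed, 1 of 10 tested was lower with sh10 in CMPs, against 1.97% of all genes called, and 1 was higher with sh20, against 6.17%. The latter was Cx3cr1, a receptor of monocytes and NK cells, at 44.0 ± 47.3 CPM (SD, n = 2) against 5.11 CPM, so its 2 libraries were far apart.

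Flt3, the cytokine receptor whose level marks lymphoid-primed multipotent progenitors, was lower in CMPs than in LSK cells with every shRNA. With Renilla shRNA CMPs were at 153, 140, 93.0 and 213 CPM, and LSK cells at 362 to 409 CPM. With sh10 CMPs were at 220, 197 and 277 CPM and LSK cells at 403, 303 and 443 CPM. With sh20 CMPs were at 131 and 113 CPM and LSK cells at 386, 257 and 290 CPM. The cell types did not overlap with any of the 3 shRNAs, and neither did 14.7% of genes with Renilla, 20% with sh10 and 19.1% with sh20 in the same direction. The log2 differences of CMP from LSK cells were -1.33 (SE 0.20, adjusted p = 0.000196) with Renilla, -0.73 (SE 0.22, adjusted p = 0.0333) with sh10 and -1.35 (SE 0.26, adjusted p = 0.00235) with sh20 in edgeR. With sh10 the call was lost without CMP sh10 replicate A or B or LSK sh10 replicate A or C (adjusted p from 0.0671 to 0.135), and with total counts as a covariate (0.0509). The study's staining included antibodies to Flt3 and IL7Rα, and the sources used here do not say whether these set the gates.

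Within a cell type Flt3 did not pass the test upon knockdown in the main analysis, and in CMPs with sh10 it passed with no filter on low counts (0.63, adjusted p = 0.0167). In CMPs the log2 fold change was 0.62 (SE 0.23, adjusted p = 0.159 in edgeR) with sh10 and -0.28 (SE 0.27, adjusted p = 0.563) with sh20. In LSK cells it was 0.03 (SE 0.15) and -0.30 (SE 0.15), with adjusted p-values of 0.997 and 0.653. The 3 genes most like Flt3 over the 19 libraries were Tm6sf1 (r = 0.952), Emb (0.945) and Atp10a (0.944). Flt3 (ENSMUSG00000042817.15) lies on chromosome 5 from 147330741 to 147400489 on the − strand, and Gm26597 lies on the other strand within it but shares no exon with it.

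Il7r, the chain that binds IL-7 and marks common lymphoid progenitors, was near the limit of detection. CMPs had 22, 3, 36 and 12 counts with Renilla shRNA, 9, 11 and 17 with sh10, and 1 and 5 with sh20. LSK cells had 7, 0, 3 and 11 counts with Renilla shRNA, 20, 7 and 25 with sh10, and 6, 22 and 0 with sh20. The groups overlapped in every comparison with Renilla. The lowest adjusted p in edgeR was 0.119, for CMPs with sh20, at a log2 fold change of -3.03 (SE 1.06). DESeq2 gave an adjusted p of 0.0469 for the same comparison. Of 15 other cytokine receptor and signalling genes tested in each knockdown comparison, 1 passed, against 6.17% of all genes called with sh20 in CMPs: Jak3, the kinase that binds the receptor chain shared by IL-7 and IL-2, was lower in CMPs with sh20 (-0.56, SE 0.09, adjusted p = 0.00971 in edgeR), at 137 ± 1.31 CPM (SD, n = 2) against 204 CPM. As for all genes in that comparison, this call was lost with the replicate block and with the depth covariate. Among the controls, CMPs also had less Jak3 than LSK cells (-0.96, SE 0.08), where 5 of the 15 were lower and 0 higher, against 19.8% of all genes called.

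Notch1 encodes the receptor whose signal starts T cell development. CMPs were at 13.4, 8.75, 14.1 and 12.7 CPM with Renilla shRNA, 29.4, 20.9 and 37.7 with sh10, and 2.03 and 12.8 with sh20. The sh10 libraries were above all others from CMPs, as 12.3% of genes were above the controls, and CMP sh20 replicate B had 12 counts, the lowest of all. Against Renilla the log2 fold change was 1.25 (SE 0.48, adjusted p = 0.176) with sh10 and -0.71 (SE 0.58, adjusted p = 0.49) with sh20 in edgeR. Without CMP sh20 replicate C the sh20 value was -2.56 and passed, with the lone sh20 library assumed to vary like the other groups. Without replicate B it was 0.07 (adjusted p = 0.93), and with total counts as a covariate it was 1.92. LSK cells were at 41.1, 32.9, 25.9 and 44.6 CPM with Renilla shRNA, 31.0, 38.7 and 74.8 with sh10, and 18.7, 25.5 and 31.5 with sh20. These groups overlapped, and neither hairpin passed the test in LSK cells.

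CMPs had less Notch1 than LSK cells with Renilla shRNA and with sh20. The log2 difference was -1.56 (SE 0.41, adjusted p = 0.0121) with Renilla shRNA, -1.77 (SE 0.55, adjusted p = 0.0396) with sh20 and -0.72 (SE 0.45, adjusted p = 0.307) with sh10 in edgeR. The sh20 call was lost without CMP sh20 replicate B, at -0.97, without LSK sh20 replicate B or C, with total counts as a covariate (adjusted p = 0.061) and with the compared libraries alone (0.321). Of 15 other Notch pathway genes tested, 3 were lower in control CMPs and 0 higher, a share close to the 19.8% of all genes called. Named by their size these were Dtx4 (-1.35), Maml2 (-1.23) and Maml3 (-0.91), a regulator of Notch signalling and a pair of coactivators of the Notch transcription complex. With either hairpin against Renilla in CMPs 0 of 14 passed in edgeR. With sh10 5 had an unadjusted p under 0.05 and DESeq2 called 2, and with sh20 these were 2 and 1. Exons of Notch1 (ENSMUSG00000026923.15, chromosome 2, 26457903 to 26516663, − strand) overlap 0610009E02Rik and Gm13568 on the other strand.

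Ikzf1, which encodes the zinc finger protein Ikaros, was highest with sh10 and lowest with sh20 in CMPs. It was at 181, 256, 185 and 170 CPM with Renilla shRNA, 273, 302 and 282 with sh10, and 169 and 114 with sh20. The 3 groups did not overlap. Of all genes 12.3% lay above the controls with sh10 and 17.7% below them with sh20 without overlap, and the nearest sh20 and control libraries were at 169 and 170 CPM. The log2 fold change against Renilla was 0.53 (SE 0.16, adjusted p = 0.102) with sh10 and -0.47 (SE 0.18, adjusted p = 0.151) with sh20 in edgeR, so neither passed. The sh10 value passed in DESeq2 (adjusted p = 0.0216), with no filter (0.00741) and without CMP Renilla replicate B (0.67, adjusted p = 0.0428), and it turned to -0.12 with total counts as a covariate. The sh20 value passed without CMP sh20 replicate B (-0.79, adjusted p = 0.0428), which leaves 1 sh20 library, assumed to vary like the other groups.

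In LSK cells Ikzf1 was at 228, 160, 165 and 174 CPM with Renilla shRNA, 154, 77.4 and 211 with sh10, and 91.1, 99.6 and 94.6 with sh20. The sh20 libraries were all below the controls, as for 5.79% of genes, and close to each other, whereas the sh10 libraries spread over both. The lowest sh10 value was from replicate B, which held 357 CPM of 11 mature myeloid markers. The other sh10 libraries held 103 and 125 CPM of them, and the controls 34 to 345 CPM. The log2 fold change was -0.96 with sh20 (SE 0.27, unadjusted p = 0.00437, adjusted p = 0.31 in edgeR, and 0.0343 with no filter) and -0.30 (SE 0.26) with sh10. With sh10 CMPs were above LSK cells by 0.95 (SE 0.26, adjusted p = 0.017). With Renilla shRNA the difference was 0.12 (adjusted p = 0.76), and with sh20 it was 0.57 (adjusted p = 0.195). The sh10 call rests on the spread of all 6 groups, since with the 6 sh10 libraries alone the adjusted p was 0.0927. Ikzf1 (ENSMUSG00000018654.17) lies on chromosome 11 from 11685003 to 11772926 on the + strand.

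Satb1, a chromatin organizer of stem cells and thymocytes, had overlapping groups within each cell type. CMPs were at 43.5 to 89.4 CPM with Renilla shRNA, 52.8 to 83.8 with sh10, and 60.2 and 50.1 with sh20. LSK cells were at 72.1 to 140 CPM with Renilla shRNA, 79.5 to 143 with sh10, and 100, 55.4 and 51.3 with sh20. The largest knockdown difference was -0.66 (SE 0.30, adjusted p = 0.607 in edgeR), in LSK cells with sh20. Control CMPs differed from control LSK cells by a log2 value of -0.66 (SE 0.29, adjusted p = 0.118), which passed with no filter (adjusted p = 0.00457). Across the 19 libraries Satb1 correlated with Flt3 at r = 0.76 and Notch1 with Flt3 at r = 0.75, which includes the difference between cell types that Flt3 and Notch1 share.

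Of 16 other transcription factors of lymphoid specification tested in CMPs, 4 were lower and 0 higher with sh10 than with Renilla, against 1.97% of all genes called (7 lower and 1 higher in DESeq2), with a median log2 fold change of -0.66 against -0.01 over all genes. With sh20 0 of 16 passed in edgeR, 7 had an unadjusted p under 0.05, and DESeq2 called 2 lower and 2 higher. Tcf7, a Notch target of early T cells that NK cells also express, was at 24.1 ± 15.7 CPM (SD, n = 3) with sh10, against 100 ± 23 CPM (SD, n = 4) in the controls (-2.06, SE 0.42, adjusted p = 0.0429 in edgeR). Id2, an inhibitor of E proteins that NK and other innate cells need, was lower by a log2 value of -1.20 (SE 0.23, adjusted p = 0.0374), and Gata3, a factor of T and innate lymphoid cells, by -1.04 (SE 0.19, adjusted p = 0.0358). Of 11 other early lymphoid surface and receptor genes tested, 3 were lower with sh10, against the same 1.97%: Ltb (-3.08), Cd7 (-2.93) and Lck (-2.23), which T and NK cells share. With sh20 1 of the 11 was lower and 1 higher, against 6.17%. With both shRNAs as 1 group 0 of 10 of these genes and 0 of 16 of the transcription factors passed in edgeR, 2 and 4 had an unadjusted p under 0.05, and DESeq2 called 0 and 2. In CMPs with sh20 Ltb was at 65.4 ± 10.9 CPM (SD, n = 2), near its 67.4 CPM with Renilla shRNA. The NK and T cell marker sums given above were also low with sh10, and their part was not tested.

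Dntt encodes terminal deoxynucleotidyl transferase, which adds bases at antigen receptor joints and is among the earliest lymphoid transcripts. CMPs were at 170, 117, 104 and 127 CPM with Renilla shRNA, 125, 80.6 and 137 with sh10, and 71.8 and 97.7 with sh20. LSK cells were at 158, 114, 135 and 106 CPM with Renilla shRNA, 166, 157 and 194 with sh10, and 77.5, 67.4 and 128 with sh20. The log2 difference of CMP from LSK cells was 0.01 (SE 0.22) with Renilla shRNA and -0.1 (SE 0.28) with sh20, with overlap. With sh10 CMPs were below LSK cells without overlap, as for 20% of genes, at -0.59 (SE 0.25, unadjusted p = 0.029, adjusted p = 0.117 in edgeR), and the adjusted p was 0.0083 with no filter on low counts. Both sh20 libraries from CMPs were below the controls, as for 17.7% of genes, at a log2 fold change of -0.59 (SE 0.25, adjusted p = 0.184 in edgeR), and the value for LSK cells was -0.52 (SE 0.22, adjusted p = 0.572). The CMP value became 2.12 with total counts as a covariate. With sh10 it was -0.18 (SE 0.22) in CMPs and 0.43 (SE 0.22) in LSK cells. Dntt (ENSMUSG00000025014.13) lies on chromosome 19 from 41029275 to 41059525 on the + strand.

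Rag1, the recombinase subunit that starts V(D)J joining, was nearly undetected in all but 1 library and did not pass the filter in any comparison. It had 41 counts, or 7.18 CPM, in CMP sh20 replicate C. In the other 18 libraries it had between 0 and 6 counts, with 0 in 8 of them. CMP sh20 replicate C also held 513 counts of Igll1 and 161 of Vpreb1, the surrogate light chain of pro-B cells, and 234 of the B cell factor Ebf1. In the other 8 CMP libraries Igll1 had 0 to 4 counts, Vpreb1 0 to 12 and Ebf1 0 to 3. Not every B cell marker was high in CMP sh20 replicate C, where Pax5 and Ms4a1 had 0 counts. Il7r, which pro-B cells need, had 5 counts in that library. Exons of Rag1 overlap those of B230118H07Rik on the same strand, so reads on both may have been left uncounted as ambiguous. Of 12 V(D)J joining genes tested, 1 was lower and 1 higher with sh20 in CMPs, against 6.17% of all genes called. The higher one was Polm, a polymerase related to Dntt, at 37.1 ± 19.7 CPM (SD, n = 2) against 14.5 CPM with Renilla shRNA (1.36, SE 0.35, adjusted p = 0.0494 in edgeR), a call that was lost with the replicate block and with the depth covariate. Between cell types Polm was higher in CMPs with each shRNA, by 2.94 with Renilla, 2.55 with sh10 and 2.97 with sh20.

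Upon Spehd knockdown 0 of the genes with a test passed in edgeR in either cell type. In CMPs with both shRNAs as 1 group 0 of 7 passed, with p-values adjusted over all 12912 genes tested, of which 0.116% were called. At an unadjusted p under 0.05 it was 0 of 7, against 16.6% of all genes, and 0 in DESeq2. With sh10 0 of 7 passed against 1.97% of all genes, 3 had an unadjusted p under 0.05 against 21.2%, and DESeq2 called 1, Ikzf1. With sh20 0 of 7 passed against 6.17%, 4 had an unadjusted p under 0.05 against 24.6%, and DESeq2 called 1, Il7r. In LSK cells, without Ccr9, 0 of 8 passed with both shRNAs, 0 of 8 with sh10 and 0 of 8 with sh20, and 0% of all genes were called in each. At an unadjusted p under 0.05 there were 1 (Ikzf1, lower), 0 and 2 (Ikzf1 and Dntt, lower), against 3.66%, 3.3% and 8.33% of all genes, and DESeq2 called 0 in each. For the difference of the knockdown effect between cell types 0 of 7 passed in edgeR and 0 in DESeq2, against 0.0531% of all genes. At an unadjusted p under 0.05 there were 2, Il7r and Ikzf1, against 10.1%.

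**Figure D3:**
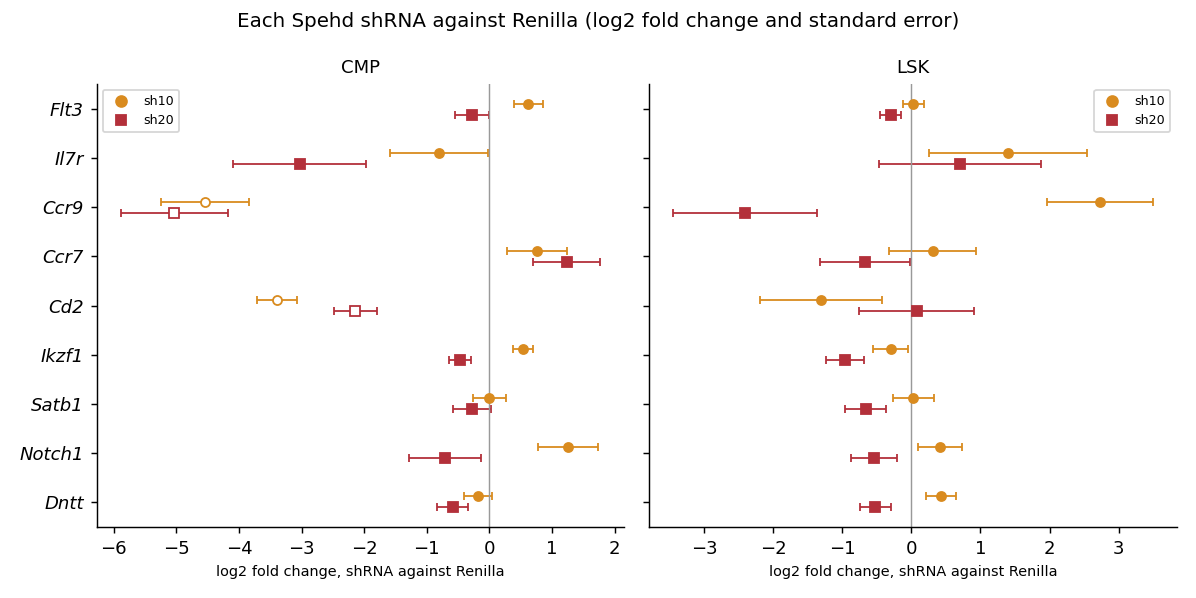
Log2 fold change of each gene with sh10 (circles) or sh20 (squares) against Renilla shRNA in CMPs (left) and LSK cells (right), with bars of 1 standard error. Open symbols mark Ccr9 and Cd2 in CMPs, given without a test. Ccr9 in LSK cells also carries no test, since it passed the filter only through sh10. Rag1 did not pass the filter and is not drawn.

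Between cell types 2 of 7 passed with each shRNA. With Renilla these were Flt3 and Notch1, both lower in CMPs, against 19.8% of all genes called in either direction. With sh10 these were Flt3, lower, and Ikzf1, higher, against 16.1%. With sh20 these were Flt3 and Notch1, both lower, against 14.6%. The median log2 difference over the 7 genes was -0.53, -0.59 and -0.32, against -0.02, 0.01 and -0.02 over all genes. Of 17 other lymphoid transcription factors tested in the controls, 5 were higher and 1 was lower in CMPs, against the same 19.8% of all genes. Tcf7 was at 100 CPM in CMPs and 8.39 CPM in LSK cells (3.59, SE 0.43), while Gfi1, a repressor of stem and myeloid cells, was at 11.3 and 57.4 CPM (-2.35, SE 0.34). In the same comparison 7 of 14 T cell markers and 6 of 10 NK cell markers were higher in CMPs and 0 lower, and their part in these values was not tested.

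**Figure D4:**
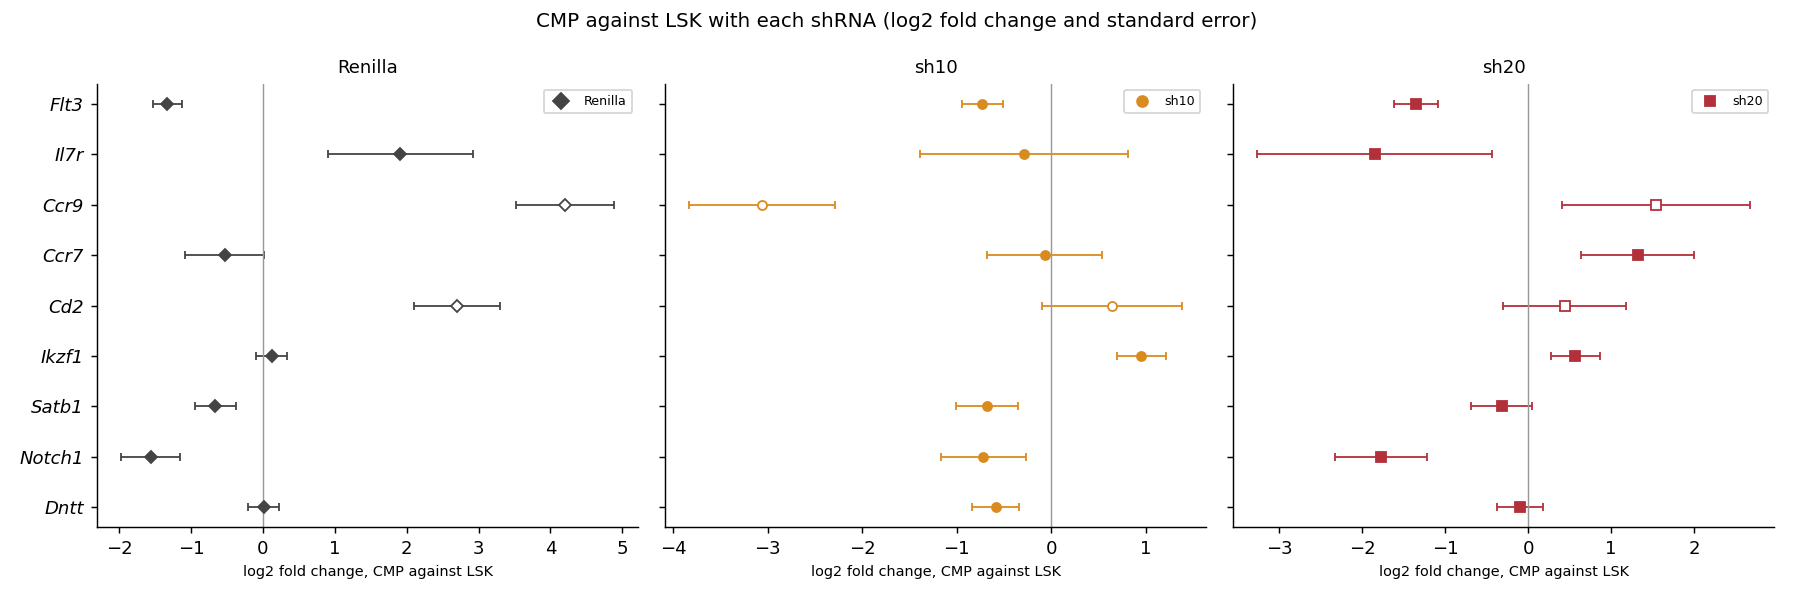
Log2 difference of CMP from LSK cells for each gene with Renilla shRNA, sh10 and sh20 (panels from left to right), with bars of 1 standard error. Flt3 lies below 0 in all 3 panels, and Ccr9 lies at 4.20, -3.06 and 1.54. Open symbols mark Ccr9 and Cd2, which are given without a test.

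The hairpins were also set against each other, a comparison chosen after seeing the data. In CMPs 6 of the 7 genes with a test had a negative log2 difference of sh20 from sh10, with a median log2 difference of -0.90, and in LSK cells, without Ccr9, 7 of 8 did, with a median of -0.7. The median over all genes was 0 in both. Ikzf1 passed the test in CMPs (-1.0, SE 0.19, adjusted p = 0.0233 in edgeR), 1 of 7 against 6.41% of all genes. Flt3 (-0.90, SE 0.28, adjusted p = 0.0807) and Notch1 (-1.97, SE 0.62, adjusted p = 0.0858) did not pass, although the groups did not overlap for either, as for 23.9% of genes in that direction. Both passed in DESeq2 (adjusted p = 0.0147 and 0.0153), with no filter and with all 19 libraries in 1 fit. For Ikzf1 the call was lost without any single sh10 library, at adjusted p-values from 0.0641 to 0.084, with total counts as a covariate (0.255) and with all 19 libraries in 1 fit (0.0538). In LSK cells 0 of these 8 passed against 0% of all genes, 3 had an unadjusted p under 0.05 against 9.17%, and DESeq2 called 1, Dntt. Ccr9, which carries no test in LSK cells, had 2 counts in all with sh20 and 89 with sh10. The log2 difference for Dntt was -0.95 (SE 0.24, adjusted p = 0.204), with no overlap between the groups, as for 5.89% of genes. Libraries with sh20 also detected fewer genes, 17174 to 18066, against 19042 to 20678 with sh10, and the part of this in the differences was not tested. In LSK cells the summed level of 11 mature myeloid markers was 103 to 357 CPM with sh10, 42.7 to 70.4 with sh20 and 34 to 345 with Renilla shRNA. Between the hairpins 0 of 10 tested passed in edgeR, 7 had an unadjusted p under 0.05 and DESeq2 called 3 lower. Their median log2 difference was -3.54, and their part was not tested either.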

How the data were processed

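RNA from sorted CMP and LSK cells was sequenced with a SMART-Seq v4 kit. Per the study's methods, the authors used STAR 2.5.2a for alignment to mm10, Picard 1.131 to remove duplicates, and HTSeq 0.7.2 to count genes of GENCODE vM11. The deposited values used here are whole counts per gene and library, without normalization. Removing duplicates lowers the counts of abundant genes most. Library totals were 3647318 to 5965155. The summary lines of HTSeq were left out, of which reads on no gene made 51.9% to 53.8%. A table of the authors' normalized counts was not used here. No series column outside the 19 libraries was used.

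Counts were compared with edgeR 4.0.16 (quasi-likelihood test, TMM, filterByExpr at 10 counts per library and 15 in total) in R 4.3.3, with Benjamini-Hochberg adjustment over all genes tested and a threshold of 0.05. Knockdown fits used the libraries of 1 cell type, with the hairpins pooled or apart (3 groups). The comparison of CMPs with LSK cells used 1 fit of the 6 groups. Standard errors of log2 fold changes were taken from the fold change and its F statistic. Log2 CPM used a prior count of 2. Alternatives were DESeq2 1.42.0, other normalizations and filters, the replicate letter, depth as a covariate, other fits and leaving out each library. Exon lengths and gene positions were read from GENCODE vM21 (GRCm38), promoters from RefSeq on GRCm38.p6 and guides from the study's list. Scripts were first tested on simulated data with 200 changed genes. Figures were drawn with matplotlib 3.10.9.

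The members and the gene lists were chosen with earlier results of these data known. All 10 members are named. Of other lists, up to 3 genes past the threshold with the largest change and a mean of at least 50 counts are named, and beside a marker sum its defining genes, the latter chosen after their values were seen. The 3 genes most like each member described were ranked by Pearson correlation over 19 libraries. No source says that a replicate letter pairs libraries.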

Additional observations from a re-analysis of the deposited data

Results flagged for a closer look

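In 40 gene and group combinations of at least 4 libraries, 4 held a library far from the others by Dixon's criterion, which chance meets in about 1 in 20 groups. Rag1 was at 7.18 CPM in CMP sh20 replicate C, against 0 to 0.21 CPM in the other CMP libraries with a Spehd shRNA. Rag1 was at 1.08 CPM, or 6 counts, in LSK sh10 replicate C, against 0 to 0.197 CPM in the other LSK libraries with a Spehd shRNA. Cd2 was at 9.69 CPM in LSK Renilla replicate D, against 0.816 to 2.32 CPM in the other LSK Renilla libraries, and the summed level of T cell markers was 108 CPM in it, against 83.6 to 117 CPM in those. Its summed NK cell markers, at 189 CPM, were the highest of the 4 LSK Renilla libraries, against 148 to 168 CPM. This library was the highest of the 4 for 4 of 10 NK cell markers and 5 of 14 T cell markers. Most of its T cell sum was Lat, at 90.7 CPM, against 73.3 to 94.3 CPM in the others. Notch1 was at 74.8 CPM in LSK sh10 replicate C, against 18.7 to 38.7 CPM in the other LSK libraries with a Spehd shRNA.

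Ccr9 with sh10 against Renilla went in opposite directions in the cell types in every library. As the log2 ratio of mean CPM, with no fit, the change was -4.58 in CMPs and 2.74 in LSK cells, a difference of -7.32. Seen the other way, CMPs were below LSK cells by -3.10 with sh10 and above them by 4.22 with Renilla shRNA, the same difference of -7.32. The difference was not tested, since the CMP libraries were taken to have chosen the gene.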

How the results depend on the processing

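Counts of tested members past the threshold moved in these comparisons. For CMP sh10 against Renilla (0 in the main analysis) it was 2 with no filter, 1 in DESeq2 and 0 to 1 without single libraries. For CMP sh20 against Renilla (0) it was 1 in DESeq2 and 0 to 1 without single libraries, and for LSK sh20 against Renilla (0) it was 1 with no filter. For CMP against LSK cells with Renilla shRNA (2) it was 3 with no filter and 2 otherwise. For CMP against LSK cells with sh10 and with sh20 (2 each) it was 4 with no filter, 1 with total counts as a covariate, 1 with the compared libraries alone and 1 to 2 without single libraries. With sh20 the 4 included Rag1, which had no test in the main analysis and had 41 counts in CMP sh20 replicate C and 0 in replicate B. For CMP sh20 against sh10 (1) it was 3 with no filter, 3 in DESeq2, 0 with the covariate, 2 with all 19 libraries in 1 fit and 0 to 2 without single libraries. For LSK sh20 against sh10 (0), without Ccr9, which carries no test there, it was 1 with no filter and 1 in DESeq2, Dntt each time. The cause was not tested.

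Of 107 pairs of a gene and a comparison, 74 kept their direction under all 11 to 26 alternatives run for them and 33 turned under at least 1. Of the 33, 27 had a log2 value within 0.5 of 0 in the main analysis, and 13 turned only without single libraries. With total counts as a covariate 18 turned, and in CMPs that covariate separates knockdown from control. These were Dntt (0.77), Il7r (0.94) and Satb1 (0.78) in CMPs with both shRNAs, Dntt (1.41), Satb1 (1.55) and Ikzf1 (-0.12) with sh10, and Flt3 (1.29), Dntt (2.12), Satb1 (2.37) and Notch1 (1.92) with sh20. In LSK cells they were Dntt (-0.17), Notch1 (-0.36) and Ccr7 (0.49) with both shRNAs and Flt3 (-0.14) and Satb1 (-0.37) with sh10. The others were Satb1 in the difference between cell types (-0.04) and Dntt (0.71) and Satb1 (0.82) between the hairpins in CMPs. With the replicate letter as a block Satb1 turned in CMPs (0.16 with both shRNAs, 0.21 with sh10, 0.08 with sh20), as did Cd2 (0.58), Dntt (-0.06) and Ccr7 (0.01) in LSK cells with both shRNAs. In LSK cells with both shRNAs Dntt was -0.04 and Notch1 -0.05 with all 19 libraries in 1 fit, and -0.04 and -0.06 with the shRNAs as separate groups. Satb1 in CMPs with sh10 was within 0.005 of 0 and changed sign there in DESeq2, with its size factors, with no filter and with all 19 libraries, at 0 each. Dntt between control cell types was -0.01 in DESeq2, with its size factors and with the compared libraries alone, and -0.02 with upper quartile normalization and either other filter.

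Without single libraries, values crossed 0 as follows. In CMPs against Renilla they ran for Satb1 from -0.27 to 0.05 with both shRNAs and from -0.18 to 0.16 with sh10, for Dntt from -0.33 to 0.02 with sh10, and for Notch1 from -2.56 to 0.07 with sh20. In LSK cells with both shRNAs they ran from -0.85 to 0.75 for Cd2, from -0.11 to 0.17 for Dntt, from -0.32 to 0.17 for Notch1 and from -0.32 to 0.46 for Ccr7. With sh10 they ran from -0.09 to 0.16 for Flt3, from -0.21 to 0.2 for Satb1, from -0.05 to 0.67 for Notch1 and from -0.65 to 0 for Ikzf1, and with sh20 from -0.37 to 1.29 for Cd2 and from -1.01 to 1.3 for Il7r. Between control cell types they ran from -0.13 to 0.13 for Dntt, from -0.01 to 0.25 for Ikzf1 and from -0.86 to 0.01 for Ccr7. With sh10 they ran from -0.63 to 0.06 for Il7r and from -0.31 to 0.15 for Ccr7, and with sh20 from -0.34 to 0.25 for Dntt and from -0.48 to 0.05 for Satb1. In the difference between cell types they ran from -0.01 to 0.34 for Satb1 and from -0.62 to 0.71 for Notch1, and between the hairpins in CMPs from -0.89 to 0.48 for Ccr9 and from -0.04 to 0.85 for Ccr7.

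Over all genes, calls in CMPs with both shRNAs (10 lower, 5 higher) became 435 and 447 in DESeq2, 487 and 187 with the shRNAs as separate groups, 323 and 41 with all 19 libraries in 1 fit, and 284 and 44 with upper quartile normalization. They became 0 and 0 with the replicate block, with the depth covariate, and without CMP sh10 replicate B or C or CMP Renilla replicate A, B or D, and 115 and 149 without CMP sh20 replicate B. With the block 0 members passed in CMPs or LSK cells upon knockdown and 2 between cell types with each shRNA, as without it, and the log2 difference of Ccr9 in CMPs was -4.82. Correlations of the deviations of same-letter libraries ran from -0.1106 to 0.1035 in 16 pairs within a cell type (median 0.00225). In 9 pairs with the same shRNA across cell types they reached 0.2381, with a median of 0.0543 and 2 over 0.1, against a median of -0.0295 for other letters. None of 60 group levels moved by more than 1 SD without TMM factors. Il7r, Ccr9, Ccr7, Cd2 and Rag1 had few counts in most groups, so small changes in them may have been missed, and the size that could be detected was not tested.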
